A study of Mus musculus with 24 samples.

Results

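The comparison described here was made up of 6 of 24 arrays: 3 of SapKO thymocytes and 3 of ElkKO thymocytes, all held on plates coated with anti-CD3 for 30 min. They were chosen by their labels alone, and the question was which genes, among them those induced by the T cell receptor, differed between cells that lacked one ternary complex factor and cells that lacked the other. Double-positive T cells, the CD4+ CD8+ stage of thymocyte development, had been sorted from the thymus of male Black 6J mice aged 8 weeks and rested for 2 h. Each of 4 genotypes (SapKO, ElkKO, ElkSapKO and WT) gave 3 mice, and each mouse gave an anti-CD3 array and an untreated array from a plate without coating, so that the series held 12 mice. SapKO is read here as loss of SAP-1, the product of Elk4, and ElkKO as loss of Elk-1, the product of Elk1; ElkSapKO carried both deletions. The labels do not say whether the deletions were constitutive, how the lines were bred or whether the control mice were littermates, and the same strain and sex were given for every group. Arrays of a genotype came from differently numbered mice, so the spread between them was that between mice.

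Elk-1, SAP-1 and Net (Elk3) form the ternary complex factor family of ETS transcription factors. Each binds DNA beside the serum response factor, SRF, and is phosphorylated by ERK, which couples MAP kinase signalling from the T cell receptor to transcription of immediate early genes such as Egr1, Egr2, Fos and Srf itself. SRF recognises the CArG box, and the ETS domain recognises sites with a GGAA core nearby. In double-positive thymocytes this route lies downstream of the signal that drives positive selection.

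Promoter windows of 4 induced genes are shown because they hold a CArG box and because these genes spanned the range of outcomes below: Ncoa7 was lower in SapKO, Egr2 had probe sets that went the same way, Myl6 was higher in SapKO, and Srf was not called. Each window runs from 250 bases before to 50 bases after a transcript start, is taken from RefSeq on GRCm38.p6 and is written on the gene's own strand; capitals mark CArG boxes and CCGGAA on either strand. Where matches of CCGGAA on opposite strands overlapped they form 1 run of capitals, and no CArG box overlapped CCGGAA.
Ncoa7, chr10:30655818-30656117, minus strand: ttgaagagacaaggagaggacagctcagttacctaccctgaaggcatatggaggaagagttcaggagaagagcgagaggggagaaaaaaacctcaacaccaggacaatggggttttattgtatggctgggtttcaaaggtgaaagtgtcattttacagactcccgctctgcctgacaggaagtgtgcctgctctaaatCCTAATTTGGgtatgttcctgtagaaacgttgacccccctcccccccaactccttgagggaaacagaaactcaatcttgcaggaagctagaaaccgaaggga
Egr2, chr10:67537316-67537615, plus strand: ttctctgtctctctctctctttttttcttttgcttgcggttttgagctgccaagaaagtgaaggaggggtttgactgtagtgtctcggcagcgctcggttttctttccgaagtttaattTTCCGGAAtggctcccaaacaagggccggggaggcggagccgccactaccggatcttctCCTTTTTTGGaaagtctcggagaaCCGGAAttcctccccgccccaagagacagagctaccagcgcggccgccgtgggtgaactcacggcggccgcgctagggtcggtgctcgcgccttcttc
Myl6, chr10:128492960-128493259, minus strand: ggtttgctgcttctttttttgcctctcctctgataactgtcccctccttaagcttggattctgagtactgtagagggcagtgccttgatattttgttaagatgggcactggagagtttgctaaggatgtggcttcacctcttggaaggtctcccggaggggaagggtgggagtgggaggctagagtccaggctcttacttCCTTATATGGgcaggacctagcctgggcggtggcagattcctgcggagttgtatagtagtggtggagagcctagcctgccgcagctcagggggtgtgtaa
Srf, chr17:46556113-46556412, minus strand: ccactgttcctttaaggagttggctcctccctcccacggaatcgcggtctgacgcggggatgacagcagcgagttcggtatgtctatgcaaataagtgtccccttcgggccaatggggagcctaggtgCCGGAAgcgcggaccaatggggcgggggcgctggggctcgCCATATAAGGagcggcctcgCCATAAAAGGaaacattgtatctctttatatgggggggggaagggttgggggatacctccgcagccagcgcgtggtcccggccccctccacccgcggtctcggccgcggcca
The CArG box began 52 bases before the start in Ncoa7, 72 in Egr2, 50 in Myl6, and 82 and 62 in Srf. Ncoa7 and Myl6 each had another window in the table that held no CArG box. Among the 60 induced genes defined below, 46 had an entry, with 66 windows. A CArG box lay in 9 of those windows (13.6%), against 1.63% of all 32851 windows, and CCGGAA on either strand lay in 16 (24.2%), against 14.9% of all windows. Egr2 gave 4 of the 9 windows with a CArG box, and some of these overlap, so windows are not independent counts. By gene, 6 of the 46 (13.0%) had a CArG box in a window, against 1.81% of all genes. The 6 were Ncoa7, Egr2, Myl6, Srf, Dusp5 and Zfp36. A match of letters is a description of the window and not evidence of binding.

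Signals were on the log2 scale of the deposited RMA values, and a difference is always the SapKO mean minus the ElkKO mean, so that 1 is a doubling. A gene is written as called where the limma fit over 18193 genes gave a Benjamini-Hochberg adjusted p under 0.05; the fit estimated 1 spread from all 8 groups of 3 arrays, with 16 residual degrees of freedom. Intervals are 95% intervals of that fit. Xist, which male cells do not express, reached 5.07, and a signal at or below that is treated as not distinguishable from background. Several array measures moved with the genotypes. The dap spike-in control was low (6.22 to 6.45) on the stimulated arrays of SapKO mice 1 and 3, and it was 8.97 on that of SapKO mouse 2, against 8.81 to 9.16 on the 3 ElkKO arrays. The Actb signal at the 3 prime end exceeded that at the 5 prime end by 0.182 to 0.203 in stimulated SapKO, against 0.381 to 0.603 in stimulated ElkKO. On the stimulated WT arrays dap was 6.00, 6.37 and 9.01, and the Actb excess was 0.151 to 0.359. On the stimulated ElkSapKO arrays dap was 9.08 to 9.66, and the Actb excess was 0.545 to 1.05. The part these measures play in the results was not tested beyond the fits that leave out SapKO mice 1 and 3 or carry either measure as a term, which are given with the account of single arrays.

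**Figure D1:**
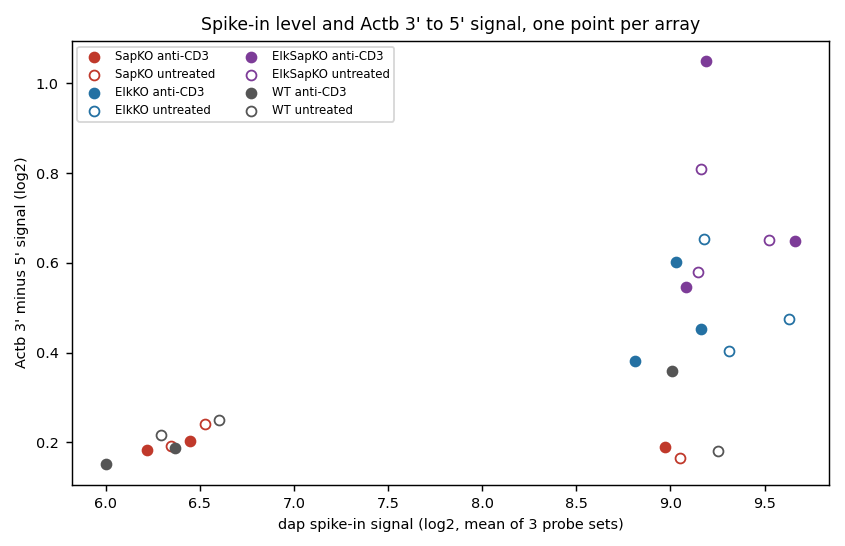
Mean signal of the dap spike-in probe sets (log2, x axis) against the Actb 3 prime minus 5 prime signal (log2, y axis), 1 point per array; filled points are anti-CD3 arrays and open points untreated ones. All ElkKO arrays lie at high dap and above the SapKO arrays on the y axis, and SapKO mouse 2 is the SapKO mouse at high dap.

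Elk4 fits the SapKO label. Stimulated SapKO arrays gave 7.47, 7.44 and 7.59, against 10.75, 10.54 and 10.99 in stimulated ElkKO. Every SapKO array lay below every ElkKO array, by a mean of -3.26 ± 0.268 (SE; adjusted p = 1.88e-07), a 9.6-fold difference. ElkSapKO arrays gave 7.44, 7.51 and 7.82, near those of SapKO, and WT arrays gave 10.25, 10.67 and 10.82, near those of ElkKO. The ElkKO label could not be checked in this way, because both Elk1 probe sets with the higher signals lay in the background range. The brighter one read 4.77, 4.95 and 4.76 in SapKO and 4.69, 4.52 and 4.41 in ElkKO, a difference of 0.29 (adjusted p = 0.781). The other, picked with its values known, read 4.364, 4.350 and 4.750 in SapKO and 3.885, 4.117 and 3.823 in ElkKO. Its difference was 0.55 (limma adjusted p = 0.328 over every probe set). WT read 4.22 to 4.55 and ElkSapKO 3.49 to 4.08 on it, all below the background limit. Elk3, which encodes Net, differed by -0.12 (interval -0.75 to 0.52). The sorted cells carried the signal of their labelled type: 19 measured double-positive thymocyte genes averaged 11.08 to 11.16 per SapKO array and 10.96 to 11.04 per ElkKO array. In such sorted populations fewer expressing cells and less RNA per cell cannot be told apart.

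Across all genes 50 were called between stimulated SapKO and ElkKO, which is 0.275% of those tested. Of these, 43 were higher in SapKO (0.236%) and 7 were lower (0.0385%). All 50 had groups that did not overlap, a pattern shown by 19.5% of all genes. The 50 were called on these same arrays, so the lack of overlap follows largely from the call and is not added support. Most called genes were not induced genes: 46 of the 50 were outside the WT response.

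Genes beside the deleted loci gave some of the largest differences. Ctse, which encodes the aspartic protease cathepsin E, read 11.84, 11.73 and 11.83 in SapKO, against 7.76, 7.38 and 7.53 in ElkKO. All SapKO arrays were high, as were the ElkSapKO arrays (11.40 to 11.92), while WT (7.07 to 7.84) was as low as ElkKO; the difference was 4.24 ± 0.195 (adjusted p = 4.46e-12). A second Ctse probe set, examined after its values were seen, went the other way without being called (-1.27, adjusted p = 0.477). Slc41a1, a magnesium transporter, read 8.72, 8.44 and 8.37 in SapKO and 7.08, 6.82 and 6.49 in ElkKO, with WT between them at 7.38 to 7.70 (difference 1.72 ± 0.203, adjusted p = 6.86e-05). In the order of protein-coding genes along chromosome 1, Slc41a1 is 4 places and Ctse 8 places from Elk4. Chromosome 1 held 6 of the 50 called genes (12%), the deleted Elk4 itself among them, against 5.81% of the genes tested. Cfp, which encodes the complement regulator properdin, is the immediate neighbour of Elk1 on chromosome X. It read 6.23, 6.11 and 5.64 in SapKO and 4.64, 4.89 and 4.64 in ElkKO, so that ElkKO lay within the background range and SapKO was at least 1.89-fold higher (adjusted p = 0.000374). ElkSapKO (4.71 to 4.89) was low like ElkKO, and WT (5.46 to 6.08) overlapped SapKO. Flanking DNA carried along with a targeted allele and an effect of the deletion itself cannot be told apart in this design.

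**Figure D2:**
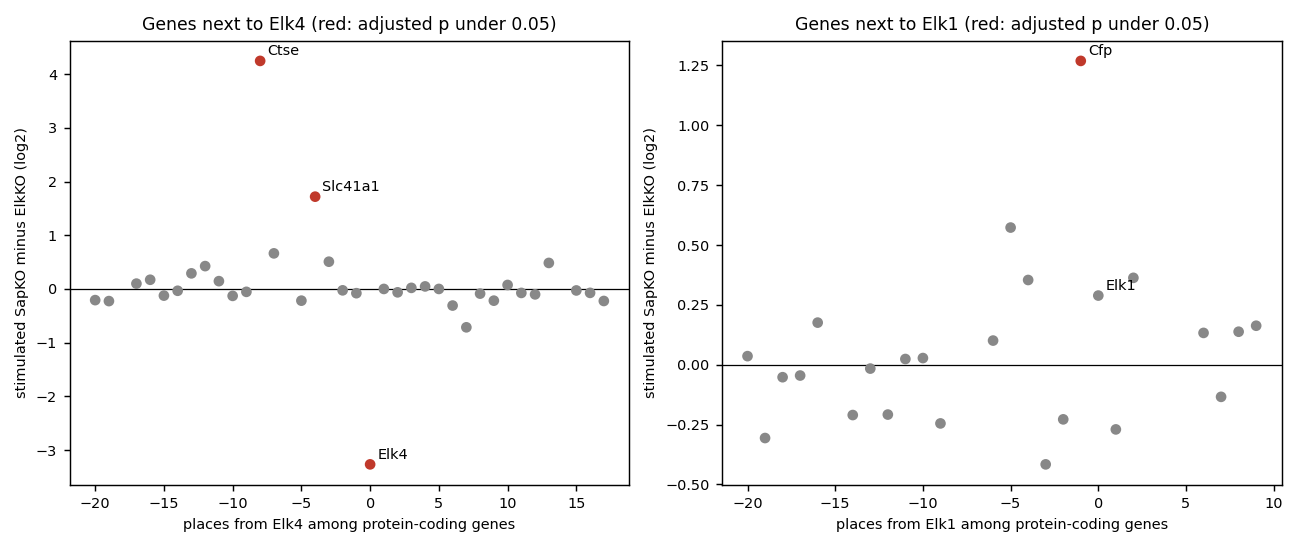
Difference of stimulated SapKO minus stimulated ElkKO (log2, y axis) for measured genes within 20 places of Elk4 (left) and Elk1 (right) in the order of protein-coding genes (x axis). Ctse, Slc41a1 and Elk4 on the left and Cfp on the right were called; the other neighbours shown were not.

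Another pair of adjacent genes separated the genotypes as strongly. Nmnat1, which makes NAD in the nucleus, read 10.71, 10.33 and 10.41 in SapKO, against 6.18, 5.84 and 6.28 in ElkKO (difference 4.38 ± 0.161, adjusted p = 8.89e-14). ElkSapKO arrays lay between the groups at 8.58 to 8.66, and WT lay near ElkKO at 6.30 to 6.76. Rbp7, a retinol-binding protein gene next to Nmnat1 on chromosome 4, read 8.36, 7.72 and 8.33 in SapKO and 5.08, 4.60 and 4.71 in ElkKO. The ElkKO mean was in the background range, and SapKO was at least 8.39-fold higher (adjusted p = 2.98e-08). Insl5, an insulin-like peptide gene also on chromosome 4 but 657 places from Rbp7, read 10.72, 10.62 and 10.85 in SapKO and 8.76, 8.74 and 8.86 in ElkKO (difference 1.94 ± 0.203, adjusted p = 1.08e-05). For these 3 genes SapKO, and not ElkKO, was called against WT.

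For other genes ElkKO was the group called against WT. Ap2b1, a subunit of the clathrin adaptor AP-2, read 8.90, 8.68 and 8.67 in SapKO and 6.07, 6.29 and 7.20 in ElkKO, with WT at 8.74 to 8.95 (difference 2.23 ± 0.342, adjusted p = 0.00226). Rab5c, a small GTPase of early endosomes, averaged 8.70 ± 0.37 in SapKO and 7.17 ± 0.0553 in ElkKO (SD, n = 3 each; limma adjusted p = 0.0245). Setd5, a SET-domain protein gene, averaged 8.16 ± 0.0551 in SapKO and 6.97 ± 0.218 in ElkKO (limma adjusted p = 0.035). Man1b1, an endoplasmic reticulum mannosidase, averaged 7.24 ± 0.154 in SapKO and 6.02 ± 0.38 in ElkKO (limma adjusted p = 0.0499). Each of these 4 genes was also called as lower in ElkKO than in WT. Eps8l1, an Eps8 family gene, differed by 1.81 ± 0.298 (adjusted p = 0.00501), with WT between the groups and called against neither. Over the 43 higher genes, 18 were called as lower in ElkKO than in WT, 7 as higher in SapKO than in WT, and 18 as neither. Over all genes 32 (0.176%) were called as lower in ElkKO than in WT and 11 (0.0605%) as higher in SapKO than in WT. These comparisons share the ElkKO or SapKO arrays with the one that chose the genes, so they describe the members and do not test them. The ElkSapKO mean was nearer to ElkKO than to SapKO for 34 of the 43. The ElkSapKO arrays were also high in dap and in the Actb excess, like the ElkKO arrays. WT mice 1 and 2 were low in dap, like SapKO mice 1 and 3. The part this split of the arrays plays in these counts was not tested.

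Among the 7 genes lower in SapKO, Mid1, an X-linked ubiquitin ligase gene, had the largest difference after Elk4. It read 5.04, 5.24 and 5.66 in SapKO and 8.62, 8.03 and 8.58 in ElkKO (difference -3.09 ± 0.344, adjusted p = 2.71e-05). WT read 6.17, 6.87 and 5.37 and ElkSapKO 6.15, 6.06 and 6.75, so only ElkKO was high. Mid1 is 821 places from Elk1. Ncoa7 is described with the induced genes. Dzip1 differed by -1.17 (adjusted p = 0.0196), Apex1, a base excision repair endonuclease, by -0.86 (adjusted p = 0.038), Naa16, an N-terminal acetyltransferase subunit, by -0.63 (adjusted p = 0.0419) and Nudt7, a Nudix hydrolase of peroxisomes, by -0.58 (adjusted p = 0.0263).

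Of the 50 called genes, 49 had a difference of the same sign in untreated cells, where 42 genes were called (0.231%), 34 higher (0.187%) and 8 lower (0.044%) in SapKO. The calls shared by both conditions numbered 28, all with the same sign, and the untreated arrays came from the same 6 mice. Ccl3, which encodes the chemokine MIP-1 alpha, was the exception. Stimulated SapKO arrays read 4.57, 5.59 and 4.89, against 3.34, 3.71 and 3.38 in stimulated ElkKO, a difference of 1.54 ± 0.201 (adjusted p = 0.0003). The untreated difference was -0.06. Both stimulated means lay within the background range, so no fold is given.

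**Figure D3:**
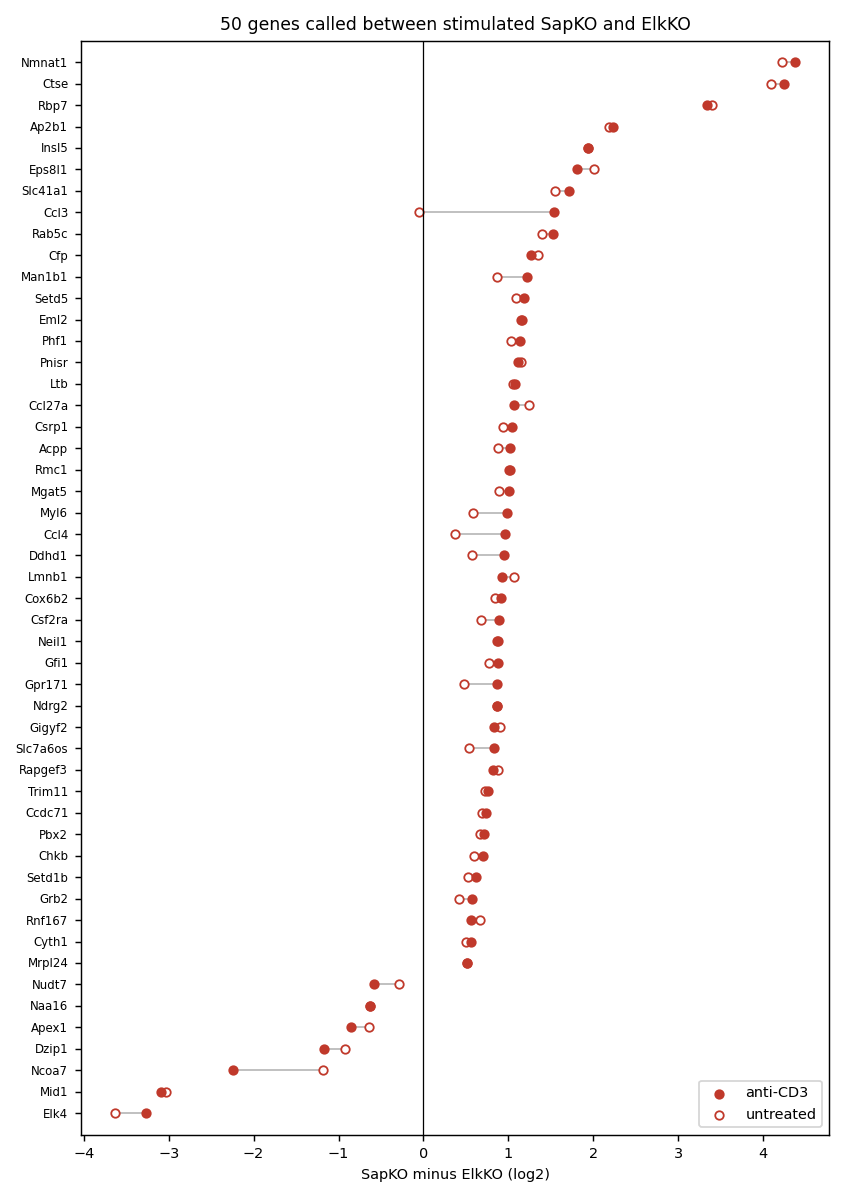
SapKO minus ElkKO (log2, x axis) for the 50 called genes (y axis), with filled points for anti-CD3 and open points for untreated cells. The open point of Ccl3 lies at -0.06 while its filled point lies at 1.54, and Ncoa7 differs more with anti-CD3 (-2.24) than without (-1.18).

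The genes induced by anti-CD3 were defined from WT arrays, which stand on neither side of the SapKO against ElkKO difference: 60 genes were called as raised in WT, which is 0.33% of those tested. Between stimulated SapKO and ElkKO 4 of the 60 were called (6.667%, against 0.275% of all genes): Ncoa7 was lower in SapKO, and Myl6, Gpr171 and Ccl4 were higher. The difference was above 0 for 44 of the 60, or 73.3%, against 46.1% of all genes, and the median was 0.23, against -0.02 over all genes. The arrays did not overlap for 30 of them, against 19.5% of all genes; 24 were higher in SapKO, against 10.4% of all genes, and 6 lower, against 9.17%. At an unadjusted p under 0.05 there were 17 higher and 4 lower, against 7.81% of all genes in both directions. All 60 genes were read on the same 3 mice per genotype, so they are not independent of each other. Their median signal per array was 9.059, 8.855 and 9.072 in stimulated SapKO. In stimulated ElkKO it was 8.947, 9.088 and 8.782, so the genotypes overlapped on this measure. The stimulated WT arrays read 8.843, 9.447 and 8.819 on it, so it is too variable to decide on a median difference of 0.23. Against WT, the 60 genes had a median of -0.08 (SapKO), -0.30 (ElkKO) and -0.44 (ElkSapKO); these share the WT arrays that chose the genes, so a value below 0 is partly fixed by that choice. Differences below 0 were led by Ncoa7, Egr2, Fos and Egr1, and those above 0 by Myl6, Ccl4, Orai1 and Gpr171.

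**Figure D4:**
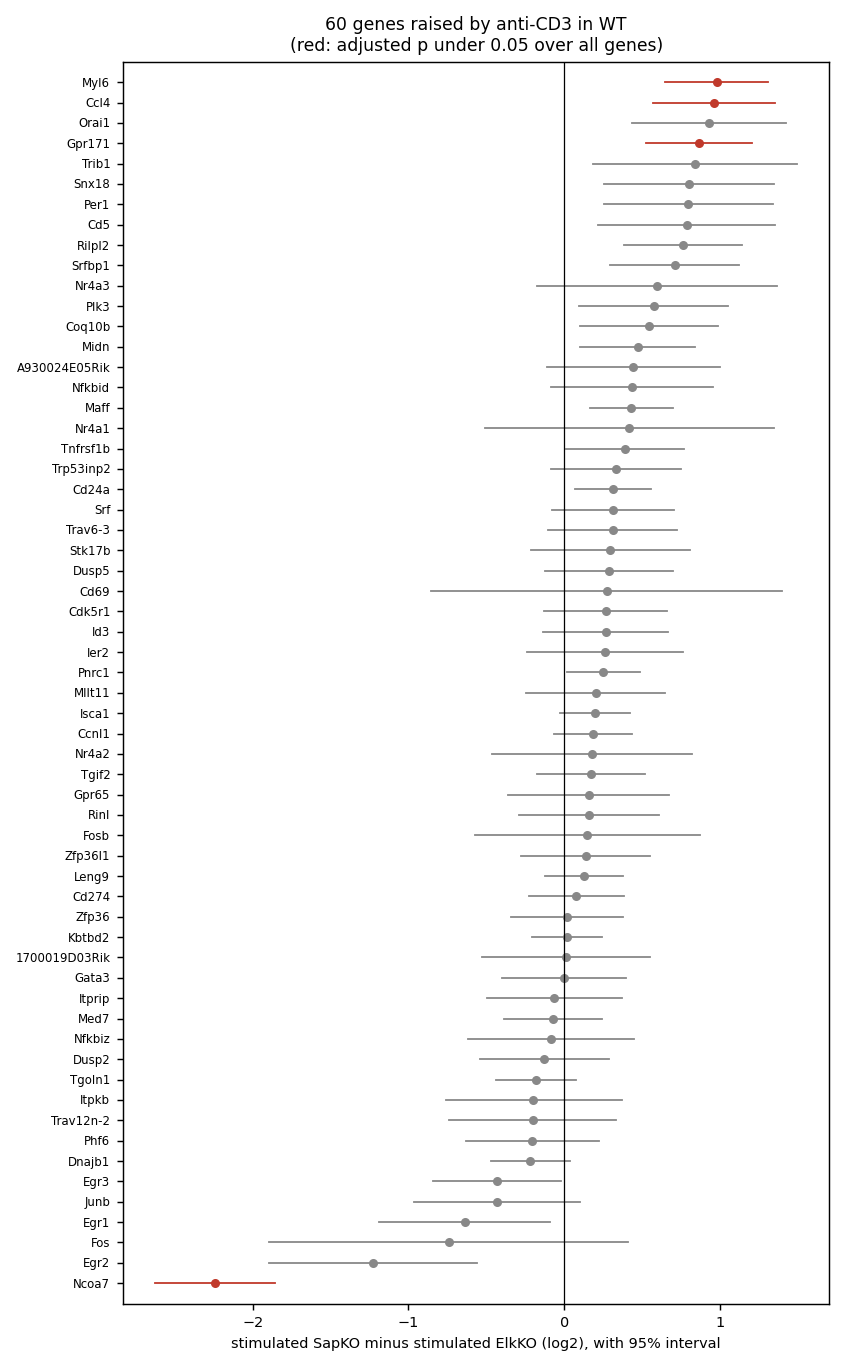
Stimulated SapKO minus stimulated ElkKO (log2, x axis) with the 95% interval for each of the 60 genes raised by anti-CD3 in WT (y axis). Ncoa7 lies at -2.24 and Myl6, Ccl4 and Gpr171 between 0.87 and 0.98 in red; most other points lie right of 0 with intervals that reach it or calls that miss the threshold.

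Ncoa7 encodes a coactivator of nuclear receptors. Stimulated SapKO arrays read 7.04, 7.28 and 6.91, against 9.44, 9.04 and 9.47 in stimulated ElkKO. SapKO was 4.73-fold lower, with no overlap (difference -2.24 ± 0.185, adjusted p = 1.88e-07). ElkSapKO read 6.90, 7.27 and 7.09, as low as SapKO, while WT read 9.55, 9.63 and 9.59, close to ElkKO. In untreated cells SapKO read 7.15, 7.12 and 7.12, against 8.16, 8.36 and 8.43 in ElkKO (difference -1.18, adjusted p = 0.00278). Anti-CD3 changed Ncoa7 by -0.06 in SapKO and by 1.00 in ElkKO (adjusted p = 0.0143), and by 1.28 in WT. The difference between the SapKO and ElkKO responses was -1.06 ± 0.262, which had an unadjusted p of 0.000581 and was not called over all genes (adjusted p = 1). The second Ncoa7 probe set, with signals of 4.59 to 5.60 in these 6 arrays, gave -0.55 (adjusted p = 0.893), and the mean of both probe sets was not called (adjusted p = 0.0529).

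Egr2 and Egr3, zinc finger transcription factors of the positive selection pathway, were each measured by several probe sets that gave unequal differences. The brightest Egr2 probe set read 10.27, 10.48 and 10.23 in SapKO and 11.24, 11.54 and 11.88 in ElkKO, without overlap. Its difference was -1.23 (interval -1.90 to -0.56), which did not pass the threshold (adjusted p = 0.112). It was called with only the 6 arrays in the fit (adjusted p = 0.00468), with array weights (0.0123), without the untreated array of mouse 2 of ElkSapKO (0.0323) and as the mean of all Egr2 probe sets (-1.31, 0.0123). The other Egr2 probe set, which the naming rule does not cover and which was picked with its values known, read 8.74, 8.94 and 9.28 in SapKO and 10.42, 10.16 and 10.56 in ElkKO (difference -1.39). It was called when every probe set was tested (adjusted p = 0.0149), but not without SapKO mouse 1 (0.155), SapKO mouse 2 (0.0703), ElkKO mouse 1 (0.0672) or ElkKO mouse 3 (0.0667). Both probe sets were strongly induced in either knockout: the brightest changed by 5.25 in SapKO and 6.93 in ElkKO, against 7.26 in WT. Untreated Egr2 means lay at or near the background limit (5.07 in SapKO, 4.62 in ElkKO and 4.45 in WT), so these changes depend on background readings. The Egr3 probe set used for the gene read 6.27, 6.04 and 6.18 in SapKO and 6.68, 6.57 and 6.54 in ElkKO, a difference of -0.43 (adjusted p = 0.593). A second Egr3 probe set, picked in the same way, was dimmer over all arrays but brighter in stimulated cells. It read 7.87, 8.33 and 8.14 in SapKO and 10.32, 10.23 and 10.56 in ElkKO, and WT read 10.17, 10.71 and 10.41. The SapKO arrays were lower by a mean of -2.26 (adjusted p = 5.9e-05 over all probe sets), and ElkSapKO arrays were low as well at 7.87, 7.92 and 6.84. Egr1, the founding member of the family, read 12.55, 12.74 and 12.60 in SapKO and 13.27, 13.36 and 13.19 in ElkKO. The groups did not overlap, but the difference of -0.64 (interval -1.19 to -0.09) was not called (adjusted p = 0.499); with only the 6 arrays in the fit it was (0.0213).

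The 3 induced genes called as higher in SapKO shared a pattern of small differences. Myl6, which encodes a myosin light chain, read 8.28, 8.15 and 8.34 in SapKO and 7.18, 7.20 and 7.46 in ElkKO (difference 0.98 ± 0.16, adjusted p = 0.00501). WT arrays (8.08 to 8.57) overlapped SapKO, and ElkSapKO arrays (7.19 to 7.54) overlapped ElkKO. Gpr171, a G protein-coupled receptor gene, read 10.96, 10.85 and 11.03 in SapKO and 10.13, 10.16 and 9.95 in ElkKO (difference 0.87 ± 0.164, adjusted p = 0.0218). Ccl4, which encodes the chemokine MIP-1 beta, read 7.36, 7.04 and 7.36 in SapKO and 6.36, 6.51 and 6.00 in ElkKO (difference 0.96 ± 0.189, adjusted p = 0.0263). None of the 3 was called in untreated cells, where the differences were 0.58, 0.48 and 0.37. Anti-CD3 raised Gpr171 in SapKO by 1.55 and in ElkKO by 1.16, and Ccl4 by 1.96 and 1.37; Myl6 was raised by 0.82 in SapKO, and its ElkKO change of 0.43 was not called.

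**Figure D5:**
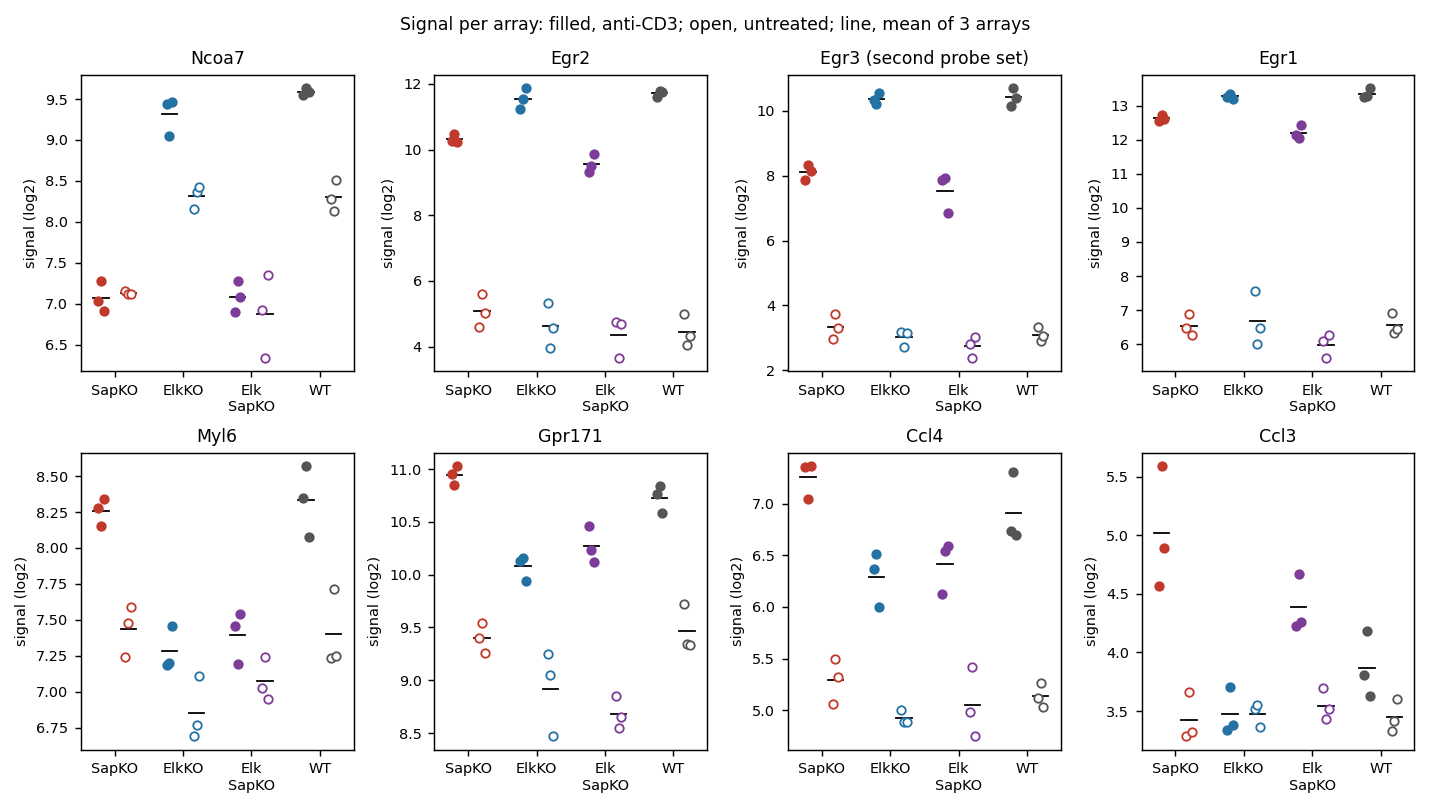
Signal (log2, y axis) of each array for 7 induced genes and Ccl3, with SapKO, ElkKO, ElkSapKO and WT from left to right, filled points for anti-CD3, open points for untreated cells and lines for means of 3 arrays. Filled SapKO points lie below filled ElkKO points for Ncoa7, Egr2, the second Egr3 probe set and Egr1, and above them for Myl6, Gpr171, Ccl4 and Ccl3.

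The next induced genes by p were not called. Orai1, the pore of the calcium release-activated channel, averaged 8.22 ± 0.0774 in SapKO and 7.29 ± 0.19 in ElkKO (SD, n = 3 each; limma adjusted p = 0.101). Rilpl2 differed by 0.76 (adjusted p = 0.08), and Srfbp1, which encodes an SRF-binding protein, by 0.71 (adjusted p = 0.158). Cd5, a surface inhibitor of T cell receptor signals, differed by 0.79 (interval 0.22 to 1.36). Per1, Snx18, Trib1, Coq10b, Midn, Maff and Cd24a differed by 0.32 to 0.84, with adjusted p from 0.209 to 0.445. Of the next 12 induced genes by p, Egr2 was lower in SapKO, and the other 11 were higher without overlap, a pattern shown by 10.4% of all genes. These 12 were chosen by p on the same arrays, so the lack of overlap follows largely from that choice and is not added support. With only the 6 arrays in the fit Rilpl2 (0.0228), Orai1 (0.00609), Cd5 (0.0102), Per1 (0.0221) and Trib1 (0.0332) were called, and without the untreated array of mouse 2 of ElkSapKO, Rilpl2 (0.0357) and Orai1 (0.036) were; the values are adjusted p.

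Classical immediate early genes gave wide intervals. The spread behind these intervals came from all groups, untreated arrays included, and for Fos the untreated ElkKO arrays read 9.055, 5.376 and 6.655. The width is therefore not a measure of the stimulated arrays alone. Fos differed by -0.74 (interval -1.89 to 0.41) and Junb, its AP-1 partner, by -0.43 (interval -0.97 to 0.10). Nr4a1, an orphan nuclear receptor induced by T cell receptor signals, differed by 0.42 (interval -0.51 to 1.35), and Cd69, an early activation marker, by 0.27 (interval -0.86 to 1.40). Ier2 differed by 0.26 (interval -0.24 to 0.77), Fosb by 0.15 (interval -0.57 to 0.87), Srf by 0.32 (interval -0.08 to 0.71) and Id3, an inhibitor of E proteins that Egr factors induce, by 0.27 (interval -0.14 to 0.67). None was called, and intervals of this width do not show that the genotypes acted alike. The stimulated groups did not overlap for Fos, Nr4a1 and Id3, a pattern shown by 19.5% of all genes. They overlapped for Junb, Cd69, Ier2, Fosb and Srf. On the second Srf probe set, picked with its values known, the groups did not overlap. It read 7.385, 7.469 and 7.309 in SapKO and 6.826, 6.912 and 6.802 in ElkKO. Its difference of 0.541 was not called (limma adjusted p = 0.504 over every probe set). Zfp36 and Kbtbd2 had narrower intervals around 0.02, from -0.34 to 0.38 and from -0.21 to 0.24; both were picked after their values were seen.

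The lists were read on the brightest probe set of each gene. Of 22 lists with 339 measured genes, only that of ternary complex factors, Srf and ETS genes held a called member, Elk4. Other probe sets of list members were called when every probe set was tested, among them those of Egr2 and Egr3 given above. Such probe sets of Wdr1 (1.165, limma adjusted p = 0.0261), Bmf (1.424, 0.003) and Ms4a1 (0.666, 0.0285) were picked with their values known. The Ms4a1 readings lay in the background range. Over all genes 0.275% were called and 7.81% had an unadjusted p under 0.05, with a median difference of -0.02. Among 24 immediate early genes tied to ternary complex factors and SRF, 0 were called and 4 had an unadjusted p under 0.05, with a median of -0.11. Among 22 cytoskeletal targets of SRF and MRTF, 0 were called and 6 had an unadjusted p under 0.05; the median was 0.21, and Cnn2, which encodes calponin 2, differed most (1.38, adjusted p = 0.08). The 20 regulators that feed back on ERK had 3 at that level and a median of -0.01, and the 14 measured MAP kinase pathway genes had 1 and a median of 0.19. The 23 measured T cell receptor signalling components had 5 and a median of 0.17. Positive selection and maturation genes (19 measured) had 3 and a median of 0.04. No marker of B cells, macrophages and dendritic cells, granulocytes, erythroid cells or epithelial and stromal cells was called. Of their measured markers 7 of 10, 12 of 19, 9 of 9, 5 of 5 and 14 of 20, in that order, lay in the background range in both genotypes. B cell markers averaged 5.48 to 5.76 per SapKO array and 5.22 to 5.49 per ElkKO array, with Cd79a at 5.56 ± 0.156 in SapKO and 4.56 ± 0.622 in ElkKO (SD, n = 3 each; limma adjusted p = 0.357).

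Whether the response to anti-CD3 itself differed was tested as the SapKO change minus the ElkKO change. No gene was called by limma (0% of those tested), 87 had an unadjusted p under 0.05 (0.478%), and 1 or 2 genes or probe sets were called under some of the other settings tried. The smallest adjusted p was 0.247, for Ccl3, which changed by 1.60 in SapKO and by -0.003 in ElkKO; the means of both conditions in both genotypes lay within the background range. With mouse as a random block Ccl3 was called (adjusted p = 0.0433), and with mouse as a fixed block no gene was. Egr2 had a response difference of -1.68 ± 0.455 (unadjusted p = 0.00133) and Cd5 one of 1.25 ± 0.388 (unadjusted p = 0.00402), and neither was called; the Egr2 value rests on untreated signals at or near the background limit. Over the 60 induced genes the median change was 1.49 in SapKO and 0.97 in ElkKO, and the median of the response differences was 0.14. Of the 60, 48 were called as raised in SapKO and 34 in ElkKO, against 62 (0.341%) and 36 (0.198%) of all genes. Untreated ElkKO mice 1, 2 and 3 read 6.982, 3.738 and 5.087 on Cd69 and 8.334, 5.715 and 6.978 on Nr4a1. On Myl6 mouse 1 was not high (6.690, 6.765 and 7.107). The part that untreated ElkKO mouse 1 plays in the smaller ElkKO change was not tested.

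How far the calls rest on single arrays differed between genes. Leaving out each of the 6 arrays in turn left 15 to 45 genes called; the lowest count, 15, came without ElkKO mouse 2, and 16, 19, 19 and 28 were called without SapKO mice 1, 2 and 3 and ElkKO mouse 1. Of the 50 genes 15 were called in all 6 of these fits. Those 15 include Elk4, Ncoa7, Ctse, Nmnat1, Rbp7, Insl5, Mid1, Cfp, Ccl3, Slc41a1, Ap2b1 and Eps8l1, and also Lmnb1 (lamin B1), Mgat5 and Rmc1, which are named after their values were seen. The fit without SapKO mice 1 and 3 kept 1 stimulated SapKO array against 3 of ElkKO, so its calls are not given. Its differences were -3.325 for Elk4, -2.04 for Ncoa7, 4.177 for Ctse, 4.225 for Nmnat1 and 2.922 for Rbp7. For Insl5, Mid1, Cfp and Ccl3 they were 1.834, -3.166, 1.384 and 2.113. With the dap level as a term 19 genes were called, and with Actb as a covariate 23. Ncoa7 was called in both of these fits, whereas Myl6, Gpr171 and Ccl4 were called in neither. Without SapKO mice 1 and 3 Myl6, Gpr171 and Ccl4 differed by 0.874, 0.775 and 0.752. Myl6 also lost its call without ElkKO mouse 2 (adjusted p = 0.051), and Gpr171 and Ccl4 lost theirs without any 1 of the 6 arrays (adjusted p up to 0.141 and 0.198). Among the other named genes, Man1b1, Apex1, Naa16 and Nudt7 also lost their calls without any 1 of the 6 arrays, with adjusted p up to 0.287, 0.24, 0.24 and 0.24. Rab5c kept its call only without SapKO mouse 3 (adjusted p = 0.0422), and Setd5 (0.042) and Dzip1 (0.0479) only without ElkKO mouse 3. Without SapKO mice 1 and 3 the differences were 2.16 for Ap2b1, 1.773 for Eps8l1, 1.642 for Slc41a1, 1.508 for Rab5c and 1.195 for Setd5. They were 1.094 for Man1b1, -1.224 for Dzip1, -0.631 for Apex1, -0.488 for Naa16 and -0.586 for Nudt7. With the dap level Setd5 (adjusted p = 0.0598), Man1b1 (0.216), Dzip1 (0.0982), Apex1 (0.267), Naa16 (0.267) and Nudt7 (0.137) were not called. With Actb Rab5c (0.259), Setd5 (0.193), Man1b1 (0.163), Eps8l1 (0.136), Apex1 (0.211) and Naa16 (0.144) were not. The second Egr3 probe set was called in each fit that left out 1 array, with the dap level (adjusted p = 0.000958) and with Actb (adjusted p = 0.0048). Without SapKO mice 1 and 3 its difference was -2.04.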

How the data were processed

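The deposited values were log2 signals of 45101 probe sets on 24 arrays, made by the authors with RMA and affy, per the submitters' processing notes; the sources used here give no versions. After 64 control probe sets were set aside, 34945 probe sets had 1 gene symbol in the platform annotation, 932 had several and 9160 had none. Each of 18193 genes was represented by its brightest single-symbol probe set, and 18032 were matched to a current gene record. Group means were fitted with limma 3.58.1 in R 4.3.3 (lmFit and eBayes over all 8 groups of 3, two-sided, Benjamini-Hochberg over all genes). A fold whose lower group lay within the Xist range was bounded at the highest Xist signal. The number of arrays limits the precision: in simulated data with 18193 genes, this comparison recovered 78% of 2-fold and 97% of 4-fold changes, with 5 false calls. The simulated noise was normal and independent between arrays, with 1 spread per gene. It held no dap or Actb split, no pairing by mouse and no outlying array, so these figures need not hold for the deposited arrays.

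Members and gene lists were chosen with earlier results of these data known. The genes named were the 12 called genes with the largest difference in each direction, the called induced genes and the next 12 by p, up to 5 called in each direction for the response difference, up to 2 per list and a fixed set of early genes; any other gene is marked as picked with its values known. Per the labels, equal numbers within a genotype mark a mouse. Deviations of an untreated and an anti-CD3 array of the same number correlated at 0.323 to 0.653 in SapKO and at 0.084 to 0.832 in ElkKO, over 10123 genes. ElkKO mice 1 and 2 (0.084 and 0.181) each correlated better with the other's number, so that the pairing rests on the labels. Promoter windows came from RefSeq on GRCm38.p6. Alternatives covered arrays left out, the dap and Actb measures, blocks, scaling, weights, filters and probe sets.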

Additional observations from a re-analysis of the deposited data

Results flagged for a closer look

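The second Egr3 probe set changed by different amounts on anti-CD3 in the 2 genotypes by the test of the difference itself. It read 7.87, 8.33 and 8.14 in stimulated SapKO and 10.32, 10.23 and 10.56 in stimulated ElkKO, against 2.97, 3.73 and 3.31 in untreated SapKO and 3.19, 2.73 and 3.13 in untreated ElkKO. All 6 untreated readings lay below the background limit of 5.07, so the size of each change depends on background readings. The SapKO change minus the ElkKO change was -2.58 (limma adjusted p = 0.0172 over every probe set). Leaving out each of the 12 arrays in turn gave -2.76 to -2.38 with adjusted p from 0.0138 to 0.111. The adjusted p was 0.00501 with mouse as a random block and 0.366 with mouse as a fixed block. Without SapKO mice 1 and 3 only 1 SapKO mouse was left, so that fit cannot decide whether the difference holds. The brightest Egr3 probe set gave -0.38 (unadjusted p = 0.184), and the cause of the unequal readings was not tested.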

How the results depend on the processing

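No difference of a named called gene changed sign under the alternatives run; with the mean of all probe sets of a gene, Elk4, Mid1 and Ctse remained called at -1.03, -1.07 and 1.49. Under it Setd5 (0.61, adjusted p = 0.39), Dzip1 (-0.51, 0.181), Apex1 (0.138), Naa16 (0.197), Nudt7 (0.218), Grb2 (0.0991) and Ncoa7 (0.0529) were not called. Between stimulated SapKO and ElkKO, 50 genes were called. The count was 290 with only the 6 arrays in the fit and 188 when ElkSapKO mouse 2 lost its untreated array. It was 19 with dap, 23 with Actb, 1448 with array weights and 100 with every probe set tested. With array weights 862 were higher and 586 lower in SapKO. The untreated array of ElkSapKO mouse 2 stands on neither side of the difference but enters the shared spread. The interquartile range of its deviations from the gene medians was 0.826, against 0.179 to 0.363 on the other arrays. Its array weight, 0.069, was the lowest. Leaving out 1 array gave 15 to 45. In untreated cells 42 genes were called, and the same alternatives gave 326, 8, 154, 21, 18, 1572 and 117, with 18 to 56 when 1 array was left out. For the response difference no gene was called, but 1 was without stimulated SapKO mouse 1, with the label number as a block, with the random replicate block by mouse, with the mean of all probe sets and with every probe set tested, and 2 were with array weights; leaving out 1 array gave 0 to 1. These calls were Ccl3, joined by Ncoa7 under weights, but Egr3 in place of Ccl3 with the mean of all probe sets and with every probe set tested. Of the induced genes 4 were called. The count was 11 with only the 6 arrays, 10 without the ElkSapKO array, 1 with dap, 1 with Actb and 34 with weights. Leaving out 1 array gave 1 to 4. The WT response held 60 genes, 121 with weights and 33 to 59 when 1 WT array was left out (33 without stimulated and 39 without untreated WT mouse 2). These WT alternatives and those of the second Egr probe sets were added after the data were seen. The cause of these shifts was not tested. Label numbers do not pair SapKO with ElkKO mice (same-number correlations 0.165, -0.045 and 0.001), and with the label number as a replicate block 75 stimulated, 54 untreated and 4 induced genes were called.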

Other observations

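Some called genes not described above act in lymphocytes; they were picked after their values were seen. Ltb, which encodes lymphotoxin beta, averaged 10.85 ± 0.043 in stimulated SapKO and 9.77 ± 0.4 in stimulated ElkKO (SD, n = 3 each; limma adjusted p = 0.0439), with a WT mean of 10.89. Gfi1, a zinc finger repressor of thymocyte development, averaged 10.21 ± 0.00993 in SapKO and 9.33 ± 0.118 in ElkKO (limma adjusted p = 0.0263), with a WT mean of 10.04. Grb2, the adaptor that links receptors to SOS and RAS, differed by 0.58 (adjusted p = 0.0439). Mgat5, which branches N-glycans on the T cell receptor, averaged 10.30 in SapKO and 9.29 in ElkKO (adjusted p = 0.00182), with ElkSapKO at 10.16 and WT at 9.37, and it is 44 places from Elk4 on chromosome 1. Lmnb1, which encodes lamin B1, averaged 10.21 in SapKO and 9.28 in ElkKO (adjusted p = 0.000444), with WT at 10.26. Lmnb1 and Mgat5 were called without any 1 of the 6 arrays, Ltb (adjusted p = 0.0167) and Gfi1 (0.0443) only without ElkKO mouse 3, and Grb2 in none of those fits (0.051 to 0.287). Without SapKO mice 1 and 3, which leaves 1 SapKO array, Mgat5 differed by 0.903 and Lmnb1 by 1.133. Ltb, Gfi1 and Grb2 were not called with dap as a term (0.263, 0.207 and 0.198) or with Actb (0.106, 0.259 and 0.211).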
